A study of Mus musculus with 6 samples.

Results

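The glycerol-phosphate and malate-aspartate shuttles were examined at the mRNA level in the gastrocnemius muscle of young and aged mice through 8 genes, Gpd1, Gpd2, Mdh1, Got1, Got2, Slc25a11, Slc25a12 and Slc25a13, among 20901 genes that could be tested on the arrays. The genes were chosen by name, as the enzymes and carriers of both shuttles, with earlier results of these data known. The arrays carried 1 probe for each of the 8 genes, and each probe was well above background on all 6 arrays and saturated on none. The young group comprised 3 male C57BL/6J mice at 13 weeks of age, and the aged group comprised 3 male C57BL/6J mice at 26 months of age. All mice received a standard laboratory diet ad libitum, and no other treatment is named for either group. RNA from the muscle of each mouse was labelled with Cy3 and hybridised to 1 single-colour Agilent array, so n is the number of mice. Skeletal muscle identity was checked with 6 genes of the muscle fibre (Acta1, Ckm, Des, Mb, Ttn and Neb), all of which were well above background. Whole muscle was used, and a smaller number of cells of a given type and less RNA per cell cannot be told apart in such samples.

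NADH made in the cytosol during glycolysis cannot cross the inner mitochondrial membrane, and the shuttles carry its electrons to the respiratory chain. In the glycerol-phosphate shuttle, cytosolic glycerol-3-phosphate dehydrogenase (Gpd1) reduces dihydroxyacetone phosphate with NADH, and the mitochondrial enzyme (Gpd2), on the outer face of the inner membrane, oxidises the product and passes the electrons to ubiquinone. In the malate-aspartate shuttle, cytosolic malate dehydrogenase (Mdh1) reduces oxaloacetate to malate, which enters the mitochondrion through the oxoglutarate carrier (Slc25a11). Inside, oxaloacetate is formed again and converted to aspartate by mitochondrial aspartate aminotransferase (Got2), the aspartate leaves in exchange for glutamate through the calcium-regulated carriers aralar (Slc25a12) or citrin (Slc25a13), and cytosolic aspartate aminotransferase (Got1) closes the cycle. Glycolytic muscle fibres are known for high glycerol-3-phosphate dehydrogenase activity, aralar is the main aspartate-glutamate carrier of skeletal muscle and brain, and citrin is best known from liver.

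Levels below are log2 processed signals minus the 75th percentile of the same array, so that a level of 0 equals that percentile. The 8 levels come from different probes and are compared between mice, never between genes. All 6 arrays were on 1 slide, with young mice 1, 2 and 3 and aged mouse 1 in row 1 and aged mice 2 and 3 in row 2. Values within row 1 therefore set 1 aged mouse against 3 young mice, and their p-values assume that the aged mouse varies like the other mice. Each gene was tested in a limma fit across all 20901 genes, with Benjamini-Hochberg adjustment over all of them and a threshold of 0.05. With 3 mice against 3, the precision is limited by the number of arrays. The limma p-values set each difference against a spread between mice that is partly borrowed from all genes (2.83 prior degrees of freedom, 6.83 in total).

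No shuttle gene passed the threshold (0 of 8), against 53 of all genes (0.254%). Unadjusted p was under 0.05 for 1 of the 8 genes, Slc25a12, against 14.4% of all genes. In the aged mice the mean was lower for 6 of the 8 genes, against 56.8% of all genes. The median log2 difference of the 8 genes, aged minus young, was -0.19, with a range from -0.52 (Slc25a12) to 0.33 (Got2), and the median of all genes was -0.06. Genes with bright probes leaned the same way. Of the 1509 genes with a mean level above 6, a range that holds 6 of the 8 shuttle genes, 75.5% were lower in the aged mice, and their median difference was -0.14.

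**Figure D1:**
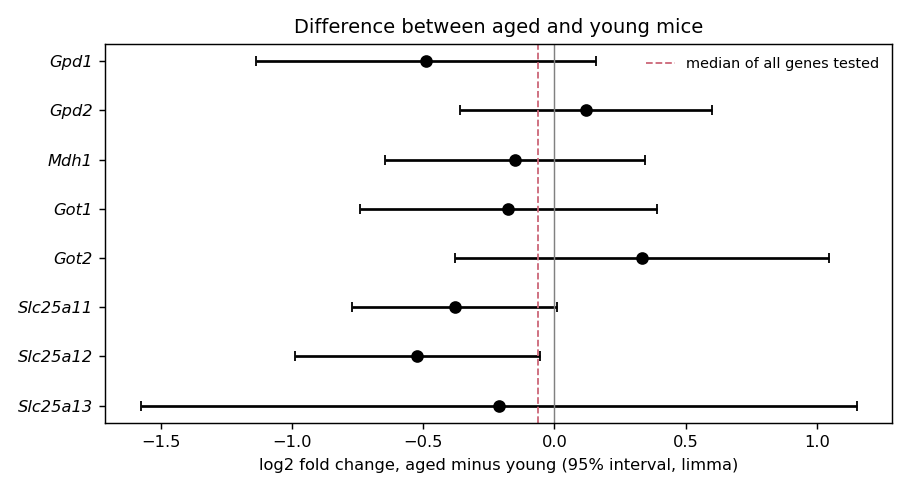
Log2 difference between aged and young mice (x axis, aged minus young) for each of the 8 shuttle genes (y axis). Points are the limma estimates, bars their 95% intervals (n = 3 mice per group), the dashed line the median of all genes tested (-0.06). The interval of Slc25a12 (-0.99 to -0.05) is the one that leaves out 0, before adjustment for the number of genes.

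Gpd1, the cytosolic enzyme of the glycerol-phosphate shuttle, was measured at 9.07, 8.78 and 9.08 in young mice 1, 2 and 3, and at 7.91, 8.81 and 8.74 in aged mice 1, 2 and 3. Aged mouse 1 stood below the other 5 mice, and aged mouse 2 lay within the range of the young mice. The mean level was 8.98 ± 0.17 (SD, n = 3) in the young group and 8.49 ± 0.50 (SD, n = 3) in the aged group, and the log2 difference was -0.49 (SE 0.27) or 0.712-fold, with a limma adjusted p of 0.453. The 95% interval, -1.14 to 0.16, runs from 0.455-fold to 1.11-fold. The difference was -0.20 without aged mouse 1, with a limma adjusted p of 0.595, and within row 1 of the slide, where aged mouse 1 alone stands for its group, it was -1.07, with a limma adjusted p of 0.192.

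Gpd2, the flavoprotein that completes this shuttle, was measured at 1.71, 1.26 and 1.37 in the young and at 1.29, 1.73 and 1.67 in the aged mice. The groups overlapped over nearly their whole ranges. The means were 1.45 ± 0.23 (SD, n = 3) and 1.57 ± 0.24 (SD, n = 3), a difference of 0.12 (SE 0.20), with a limma adjusted p of 0.808 and a 95% interval of -0.36 to 0.60. Within row 1, where aged mouse 1 alone stands for its group, it was -0.15. Scaling the arrays to their medians gave -0.027, a shift common to all genes. The pair that makes up the shuttle therefore held 1 gene with a lower and 1 with a higher mean in the aged mice, and neither differed beyond the spread between mice.

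Mdh1, the cytosolic malate dehydrogenase that consumes NADH, was measured at 7.16, 7.22 and 7.04 in the young and at 6.60, 7.21 and 7.16 in the aged mice. Aged mice 2 and 3 lay within the young range and aged mouse 1 lay below it, as for Gpd1. The means were 7.14 ± 0.09 (SD, n = 3) and 6.99 ± 0.34 (SD, n = 3), a difference of -0.15 (SE 0.21), with a limma adjusted p of 0.766. Without aged mouse 1 the difference was 0.045, and within row 1 it was -0.54, with a limma adjusted p of 0.398. With the normexp background correction it was 0.070.

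The cytosolic transaminase Got1, which joins the shuttle to glutamate and aspartate metabolism, was measured at 7.72, 8.12 and 7.77 in the young and at 8.13, 7.53 and 7.44 in the aged mice. Here aged mouse 1 was level with young mouse 2, the highest young mouse, and the other aged mice were the lowest of the 6. The means were 7.87 ± 0.22 (SD, n = 3) and 7.70 ± 0.38 (SD, n = 3), a difference of -0.18 (SE 0.24), with a limma adjusted p of 0.761. Leaving out aged mouse 1 gave -0.39, whereas leaving out aged mouse 3 gave -0.044 and leaving out young mouse 2 gave -0.050. Within row 1 it was 0.26.

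Its mitochondrial counterpart Got2 was measured at 7.17, 7.37 and 6.62 in the young and at 7.84, 6.91 and 7.41 in the aged mice. Aged mice 1 and 3 lay above all young mice, and aged mouse 2 lay among them. The means were 7.05 ± 0.38 (SD, n = 3) and 7.39 ± 0.46 (SD, n = 3), a difference of 0.33 (SE 0.30) or 1.26-fold, with a limma adjusted p of 0.637 and a 95% interval of -0.38 to 1.05. The difference was 0.11 without aged mouse 1, 0.12 without young mouse 3 and 0.57 without aged mouse 2, and with the normexp background correction it was 0.02.

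**Figure D2:**
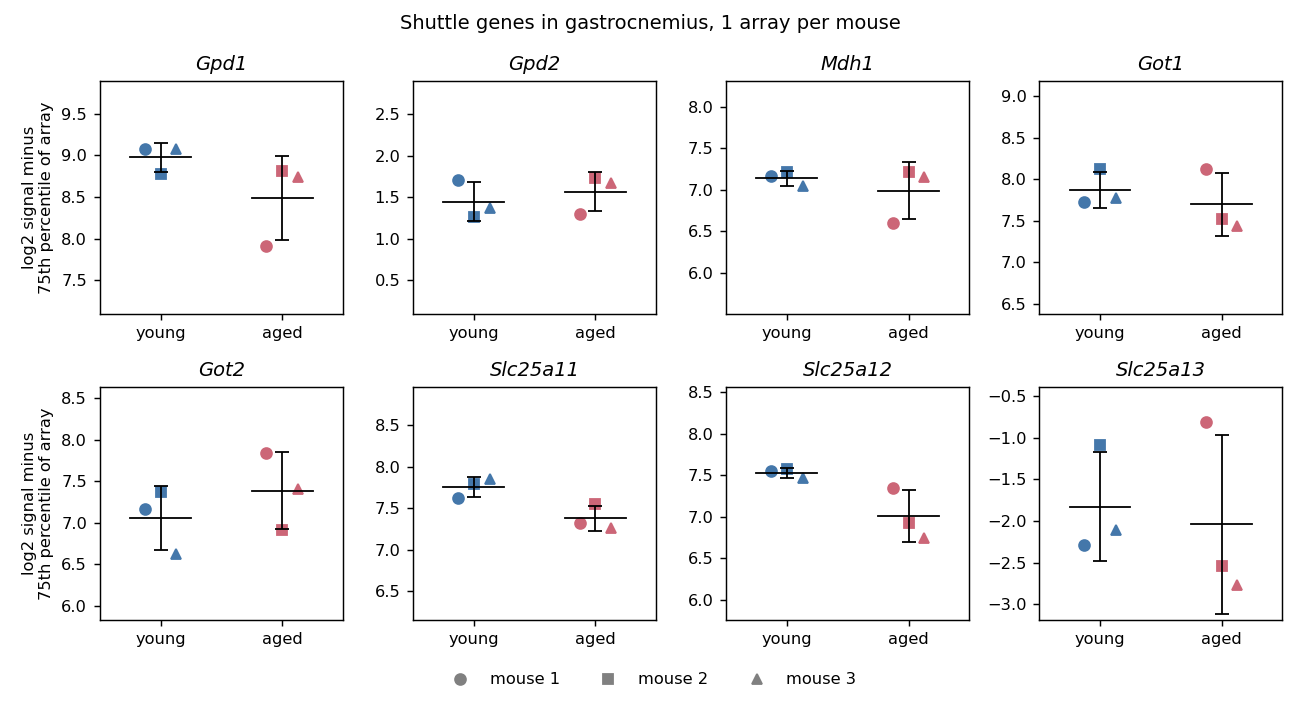
Level of each of the 8 shuttle genes (y axis, log2 signal minus the 75th percentile of the array) in young and aged mice (x axis), 1 point per mouse, with the group mean and SD (n = 3). All panels span the same number of log2 units. The aged mice lie below the young mice for Slc25a11 and Slc25a12, and the groups overlap for the other 6 genes.

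Of the carriers, Slc25a12 and Slc25a11 had the smallest unadjusted p-values of the 8 genes. Slc25a12, aralar, was measured at 7.55, 7.57 and 7.46 in the young and at 7.35, 6.92 and 6.75 in the aged mice. All aged mice lay below all young mice. The means were 7.53 ± 0.06 (SD, n = 3) and 7.01 ± 0.31 (SD, n = 3), a difference of -0.52 (SE 0.20) or 0.696-fold, with an unadjusted p of 0.0336 and an adjusted p of 0.309 in limma. Aged mouse 1 was the nearest to the young mice: the difference was -0.69 without this mouse, with a limma adjusted p of 0.123, and -0.18 within row 1, with a limma adjusted p of 0.738. Under quantile normalization it was -0.40, and the groups overlapped there and with the normexp background correction.

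Slc25a11, the oxoglutarate carrier, was measured at 7.62, 7.80 and 7.86 in the young and at 7.33, 7.55 and 7.26 in the aged mice. All aged mice again lay below all young mice, and this held under each of the 4 other background corrections and scalings. The means were 7.76 ± 0.12 (SD, n = 3) and 7.38 ± 0.15 (SD, n = 3), a difference of -0.38 (SE 0.16) or 0.769-fold, with an unadjusted p of 0.0548 and an adjusted p of 0.357 in limma. The spread between mice of one group was small, with a pooled SD of 0.139, and 12.7% of all genes had a smaller one. The SE rests on the limma spread, which is drawn towards that of all genes and is larger than this SD. Slc25a11 and Slc25a12 were the 2 of 8 shuttle genes whose groups did not overlap, against 21.8% of all genes. Within row 1 the Slc25a11 difference was -0.43, with a limma adjusted p of 0.512.

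Slc25a13, citrin, was measured at -2.29, -1.08 and -2.11 in the young and at -0.80, -2.54 and -2.78 in the aged mice. The aged mice held both the highest and the lowest value of the 6 and spanned a 3.92-fold range, against 2.31-fold in the young mice. The means were -1.83 ± 0.65 (SD, n = 3) and -2.04 ± 1.08 (SD, n = 3), a difference of -0.21 (SE 0.57), with a limma adjusted p of 0.882 and a 95% interval of -1.58 to 1.15. Its pooled SD of 0.891 was larger than that of 95.9% of all genes. The spot was 3.14 to 3.54 times as bright as its local background on 4 arrays, 5.96 times in young mouse 2 and 7.94 times in aged mouse 1. Leaving out aged mouse 1 gave a difference of -0.83, whereas leaving out aged mouse 3 or young mouse 2 gave 0.16 in either case. Within row 1 it was 1.02.

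**Figure D3:**
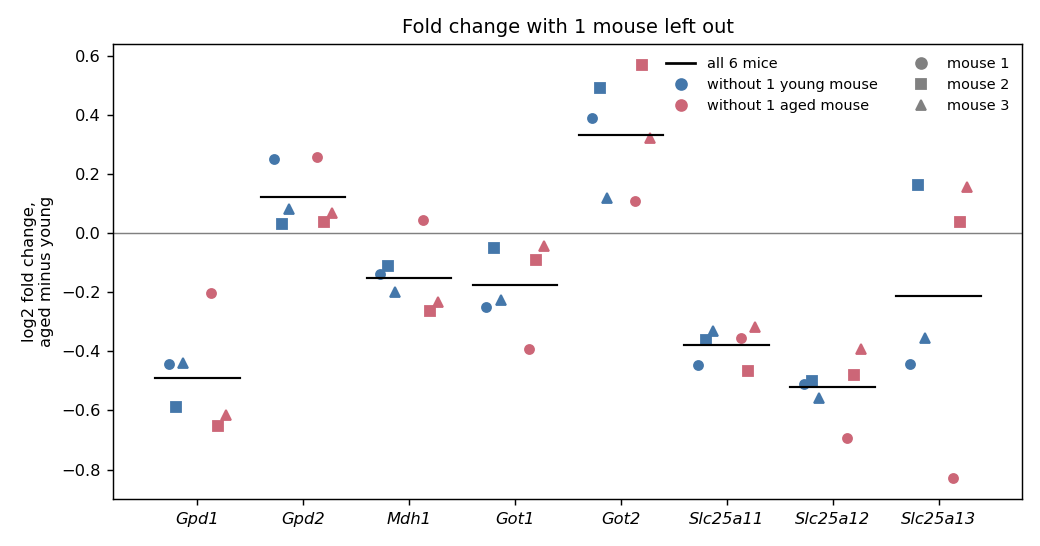
Log2 difference between aged and young mice (y axis) for each shuttle gene (x axis) with all 6 mice (black line) and with 1 mouse left out (blue, a young mouse; red, an aged mouse; symbols give the mouse number). Slc25a11 and Slc25a12 stay between -0.69 and -0.32, Slc25a13 runs from -0.83 to 0.16.

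After the values were seen, 4 genes of the malate-aspartate shuttle, Got1, Got2, Slc25a12 and Slc25a13, were singled out because young mouse 2 was the highest young mouse and aged mouse 1 the highest aged mouse for each of them. This order was found for 15.3% of all genes and for 7.95% of the genes with a mean level above 6. By the root mean square difference between centred levels over the 6 arrays, the shuttle gene nearest to Got1 was Slc25a12 (0.213), the one nearest to Got2 was Got1 (0.351), and the one nearest to Slc25a13 was Got1 (0.476). Slc25a11, which lacks this order of mice, was nearest to Slc25a12 (0.233), closer than the last 2 of these pairs. Gpd1, Gpd2 and Mdh1 had a different order, with aged mouse 1 the lowest aged mouse, as had 40.3% of all genes and 66.9% of those above a level of 6. The shuttle gene nearest to Gpd1 was Mdh1 (0.240), and Mdh1 and Gpd2 were nearest to each other (0.207). Among all 13844 other genes with a symbol, those nearest to Slc25a12 were Znrf2 (0.0430), Prr5l (0.0499) and Arid2 (0.0534). This search covered far more genes than that among the shuttle genes, and smaller distances can arise from its size alone.

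The promoters of the 4 genes that shared an order of mice are shown because they let their sequences be set side by side. Each window runs from 250 bases before to 50 bases after the annotated start of the gene, 5′ to 3′ on the strand of the gene, and all 4 genes lie on the minus strand of GRCm38.p6: Got1 at chr19:43524556-43524855, Got2 at chr8:95888352-95888651, Slc25a12 at chr2:71367706-71368005 and Slc25a13 at chr6:6217124-6217423. The sequences are from RefSeq, which gave a window for 7 of the 8 shuttle genes. Capitals mark matches, on either strand, to 6 motifs: the half-site of oestrogen-related receptors (AAGGTCA), the E-box (CACGTG), the CCAAT box (CCAAT), the GC box (GGGCGG), the core of MEF2 sites (TATTTA) and the half-site of the cyclic AMP element (TGACG).
Got1: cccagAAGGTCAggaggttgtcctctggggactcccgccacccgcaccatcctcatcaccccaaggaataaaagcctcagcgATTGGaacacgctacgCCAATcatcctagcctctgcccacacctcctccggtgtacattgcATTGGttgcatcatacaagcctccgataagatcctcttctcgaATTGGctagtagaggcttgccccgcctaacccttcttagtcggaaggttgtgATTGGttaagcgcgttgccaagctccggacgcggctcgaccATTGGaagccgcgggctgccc
Got2: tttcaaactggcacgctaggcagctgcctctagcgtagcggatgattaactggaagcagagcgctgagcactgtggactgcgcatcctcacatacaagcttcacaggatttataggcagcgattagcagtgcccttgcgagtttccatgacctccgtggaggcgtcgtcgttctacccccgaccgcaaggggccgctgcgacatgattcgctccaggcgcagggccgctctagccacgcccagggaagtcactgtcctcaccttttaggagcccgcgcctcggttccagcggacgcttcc
Slc25a12: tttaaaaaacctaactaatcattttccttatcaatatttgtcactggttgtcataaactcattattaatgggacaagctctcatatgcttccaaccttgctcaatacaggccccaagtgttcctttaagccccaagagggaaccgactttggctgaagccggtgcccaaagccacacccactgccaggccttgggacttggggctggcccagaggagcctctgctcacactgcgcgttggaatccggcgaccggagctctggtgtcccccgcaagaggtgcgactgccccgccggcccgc
Slc25a13: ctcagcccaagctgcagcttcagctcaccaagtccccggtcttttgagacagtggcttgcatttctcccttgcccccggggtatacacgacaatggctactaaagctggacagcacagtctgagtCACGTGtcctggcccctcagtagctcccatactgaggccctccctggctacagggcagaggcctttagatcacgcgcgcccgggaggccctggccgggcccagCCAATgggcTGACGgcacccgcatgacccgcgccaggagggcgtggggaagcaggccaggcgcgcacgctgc

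No motif was found in all 4 windows, and the CCAAT box was in those of Got1 and Slc25a13. The Got1 window held 1 match to the receptor half-site, found in 4.72% of 32851 windows of the same length. It also held 6 matches to the CCAAT box on both strands together, a number reached in 0.0791% of windows. This was the largest number of matches to any motif in a shuttle window. It was picked after the matches were seen, so the share describes the window and tests nothing. The Slc25a13 window held the E-box (7.15% of windows), the cyclic AMP half-site (20.8%) and the CCAAT box (37.4%). The Got2 and Slc25a12 windows held none of the 6 motifs, which says only that these letters are not in these 300 bases. Of the windows not printed, those of Mdh1 and Slc25a11 held the CCAAT box and the GC box, the GC box (35.7%) was also in 1 of the Gpd2 windows, and the MEF2 core (13.7%) was in no shuttle window.

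Read by mouse, the shuttle genes of aged mouse 1 differed from the young mean in both directions, as did those of aged mice 2 and 3. Against the mean of the young mice, aged mouse 1 differed by -1.07 in Gpd1, -0.54 in Mdh1 and -0.43 in Slc25a11, and by 0.26 in Got1, 0.78 in Got2 and 1.02 in Slc25a13. All genes with a mean level above 6 had a median difference of -0.27 in this mouse, against -0.02 in aged mouse 2 and -0.10 in aged mouse 3. It lay below the range of the young mice for 4 of the 8 genes and above it for 3, where 37.6% and 25.2% of all genes did so. Aged mice 2 and 3 lay on the same side of the young mean for 7 of the 8 genes, all but Got2. Both were lower in Gpd1 (-0.16 and -0.24), Got1 (-0.34 and -0.44), Slc25a11 (-0.21 and -0.50), Slc25a12 (-0.60 and -0.78) and Slc25a13 (-0.71 and -0.95), and both were higher in Gpd2 (0.29 and 0.23). Aged mouse 2 lay below the young range for 4 genes and above it for 1, against 30.4% and 25.4% of all genes. Aged mouse 3 lay below it for 5 and above it for 1, against 38.7% and 26.3%. Aged mouse 1 lay in another row of the slide than aged mice 2 and 3, and the part of the row in these values was not tested. The median over the 8 genes hid these contrasts, with -0.17, -0.18 and -0.34 in aged mice 1, 2 and 3.

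**Figure D4:**
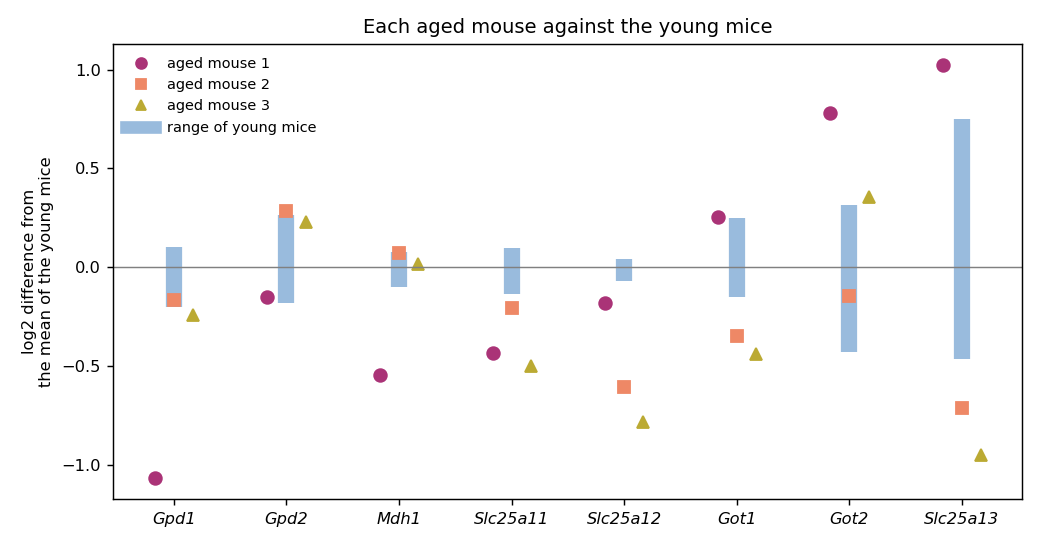
Log2 difference of each aged mouse from the mean of the 3 young mice (y axis) for each shuttle gene (x axis), with the range of the young mice as a blue bar. Of the 3 aged mice, aged mouse 1 is lowest for Gpd1, Gpd2 and Mdh1 and highest for Got1, Got2, Slc25a12 and Slc25a13. Slc25a11 and Slc25a12 lie below the young range in all 3.

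Isoforms and partners of the shuttle enzymes did not pass the threshold in limma either (0 of 3 tested, 0 with an unadjusted p under 0.05). Mdh2, the malate dehydrogenase of the mitochondrial matrix, was measured at 9.58, 9.80 and 9.97 in the young and at 9.41, 9.68 and 9.69 in the aged mice, a difference of -0.19 with a limma adjusted p of 0.648. Gpd1l, a relative of Gpd1, was measured at -2.45, -1.91 and -2.26 in the young and at -1.78, -2.06 and -1.94 in the aged mice, a difference of 0.29 with a limma adjusted p of 0.533. Their groups overlapped, as for the shuttle genes themselves other than Slc25a11 and Slc25a12. Mdh1b was measured at -2.16, -2.09 and -2.71 in the young and at -5.29, -2.001 and -2.18 in the aged mice. Its probe was well above background on 5 of the 6 arrays. Got1l1 was not well above background on any array.

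The enzymes that feed NADH, dihydroxyacetone phosphate or pyruvate to or from the shuttles (Gapdh, Tpi1, Aldoa, Ldha, Ldhb and Me1) had lower means in the aged mice in 6 of 6 cases, with a median difference of -0.25, and none passed the threshold or had an unadjusted limma p under 0.05. All 6 have bright probes, and of all genes with a mean level above 8, where 4 of them lie, 88.4% were lower in the aged mice (70.7% at levels of 6 to 8). Ldhb, the lactate dehydrogenase subunit typical of oxidative tissue, is named after its values were seen. Young mouse 2 and aged mouse 1 were the highest of their groups for this gene too. The order was not particular to Ldhb, for Gpd1l and further listed genes shared it. So did 15.3% of all genes and 7.95% of those with a mean level above 6. Ldhb was measured at 7.07, 7.72 and 6.95 in the young and at 7.63, 6.48 and 6.28 in the aged mice. Its difference was -0.45, with a limma adjusted p of 0.628.

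Of 9 other mitochondrial carriers tested, 5 had a lower mean and 4 a higher mean in the aged mice, with a median of -0.16 and 0 passing the threshold in limma (1 with an unadjusted p under 0.05). Mpc2, a subunit of the mitochondrial pyruvate carrier, was measured at 6.84, 6.94 and 7.05 in the young and at 6.44, 6.60 and 6.45 in the aged mice. All aged mice lay below all young mice, and the difference was -0.45 (SE 0.15), with an unadjusted p of 0.0223 and an adjusted p of 0.276 in limma. Its size lay between those of Slc25a11 and Slc25a12.

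Genes that make or use glycerol 3-phosphate outside the shuttle were lower in 6 and higher in 3 of 9 cases, with a median of -0.09 and 0 passing the threshold in limma (1 with an unadjusted p under 0.05). Pgp, a phosphatase that acts on glycerol 3-phosphate, was measured at 6.03, 6.15 and 6.08 in the young and at 5.37, 5.82 and 5.61 in the aged mice. The groups did not overlap, and the difference was -0.49 (SE 0.17), with an unadjusted p of 0.0272 and an adjusted p of 0.291 in limma.

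Of 13 enzymes of glutamate, aspartate and alanine metabolism, which share substrates with Got1 and Got2, 8 were lower and 5 higher, with a median of -0.11 and 0 passing the threshold in limma (2 with an unadjusted p under 0.05). Asl, which releases fumarate in arginine synthesis, was measured at 0.40, 0.10 and -0.41 in the young and at 1.45, 1.06 and 0.65 in the aged mice, a difference of 1.03 (SE 0.29) with an unadjusted p of 0.00968 and an adjusted p of 0.212 in limma. All aged mice lay above all young mice for Asl, and this difference was larger in size than that of any shuttle gene.

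Markers of fibre types and of other cells are given here as summed signals in multiples of the 75th percentile of each array. The 8 slow fibre genes (7 with a lower mean, 3 of them with an unadjusted limma p under 0.05, median -0.58) summed to 1385 to 1815 in the young and 842 to 1278 in the aged mice. The lowest sum was in aged mouse 3, which also had the lowest Slc25a12, Slc25a11, Got1 and Slc25a13. At the other end, young mouse 3 had the highest sum and the highest Slc25a11 but, of the young mice, the lowest Slc25a12. Got1 and Slc25a13 were highest in aged mouse 1, whose slow fibre sum (1253) lay below those of all young mice. The 11 fast fibre genes (10 with a lower mean, median -0.17) summed to 6879 to 8140 in the young and 5752 to 7260 in the aged mice. The lowest sum was in aged mouse 1, which also had the lowest Gpd1 and Mdh1 and, of the aged mice, the lowest Gpd2. At the other end, young mouse 3 had the highest sum and the highest Gpd1 but, of the young mice, the lowest Mdh1. Gpd2 was highest in aged mouse 2. The 6 general skeletal muscle genes (5 with a lower mean, median -0.08) summed to 3120 to 3629 in the young and 2663 to 3437 in the aged mice, again with the lowest sum in aged mouse 1. Most genes of the fast fibre and general muscle lists have bright probes. Of all genes with a mean level above 8, 88.4% were lower in the aged mice, with a median of -0.16. The median difference of these genes from the young mean was -0.32 in aged mouse 1, against -0.03 and -0.10 in aged mice 2 and 3. Tnni2 had no probe with its name and was not tested.

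Erythrocyte markers (6 of 6 with a lower mean, 5 with an unadjusted limma p under 0.05) summed to 592 to 830 in the young and 264 to 421 in the aged mice. Adipocyte markers (6 of 7 with a lower mean, 0 with an unadjusted limma p under 0.05) summed to 552 to 607 and 447 to 510. Car3, with levels from 8.34 to 8.85, was the brightest of them and outweighed the others in this sum. The sum therefore follows this 1 gene and is no measure of fat in the muscle. Adipoq differed by -0.24, Plin1 by -0.48 and Retn, the 1 with a higher mean, by 0.16. Lep was not well above background on enough arrays to be tested. Endothelial markers (3 of 5 with a lower mean, 1 with an unadjusted limma p under 0.05) summed to 15.2 to 18.6 and 11.1 to 13.4. Macrophage markers (5 of 6 tested with a higher mean, 3 with an unadjusted limma p under 0.05) summed to 17.5 to 19.1 and 19.3 to 24.5. Cd163 was too dim to test. Csf1r, with levels from 3.52 to 3.88, was the brightest of them and outweighed the others in this sum. It was also the 1 with a lower mean (-0.05). Of the brown adipocyte markers, Ucp1 and Elovl3 were not tested for the same reason as Lep, and the other 2 summed to 2.64 to 4.63 and 2.73 to 6.59. Of all genes, 14.4% had an unadjusted limma p under 0.05. No marker of these lists passed the threshold, and the part of fibre types and other cells in the shuttle values was not tested.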

How the data were processed

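Gastrocnemius RNA of 3 young and 3 aged mice was measured on 6 Agilent arrays. The authors deposited Feature Extraction output for each array (version 9.5 per the labels, 11.0.1.1 per the file headers), with processed signals as linear intensities, corrected for background by the software and not scaled between arrays. Intensities in the series matrix were identical to these. The array methods refer to an earlier publication, and no test is named for them.

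Control spots (leaving 59305 of 62976) and spots marked as outliers (161 to 212 per array) were left out, spots of one probe were averaged as log2 signals, and from every array its 75th percentile was subtracted. Probes were named by matching accessions to RefSeq genes of GRCm38.p6 (28325 with and 27344 without a symbol), and the coordinates of the array design, made on another build, were not used. Probes were kept where 3 or more arrays had them well above background, and the brightest unsaturated one represented each gene, which gave 20901 genes (13845 named by symbol). The age groups were compared in R 4.3.3 with limma 3.58.1 (functions lmFit and eBayes), and p-values were adjusted over all genes after Benjamini-Hochberg. An exact permutation test of 3 against 3 mice cannot go below a two-sided p of 0.1 and was not used. No depth or interval of counts applies to arrays.

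The genes named are the 8 shuttle genes, their isoforms and partners, genes of the other pathway lists with an unadjusted p under 0.05 and no overlap between groups, and the 3 genes nearest to the shuttle gene with the largest difference, and 1 gene that meets this rule is not reported here. Ldhb was named outside this rule, after its values were seen. The shuttle genes and all pathway and marker lists were chosen with earlier results of these data known. The alternatives were the normexp background correction (offset 50, on median spot signals), 3 other scalings, 2 other filters on dim probes, averaging all probes of a gene, a trend of variance with level, a block for the slide row or for the replicate number, and omission of each mouse in turn.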

Additional observations from a re-analysis of the deposited data

How the results depend on the processing

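No shuttle gene passed the threshold in limma under any of the 16 alternatives. Some alternatives could change p-values but not the difference of a shuttle gene, as each has 1 probe and the groups are balanced. These were the 2 other filters on dim probes, averaging all probes of a gene, the variance trend and the replicate block. Their differences repeat the main ones and are included in the counts of directions that follow. Gpd1, Got2, Slc25a11 and Slc25a12 kept their direction in all 16, with -0.53 to -0.26 and limma adjusted p-values of 0.240 to 0.679 for Slc25a11, and -0.69 to -0.18 and 0.123 to 0.738 for Slc25a12. Of 128 values of shuttle genes under the alternatives, 9 had the opposite sign: Mdh1 with normexp (0.070), Gpd2 with median scaling (-0.027), which shifted all genes alike, Gpd2 (-0.15), Got1 (0.26) and Slc25a13 (1.02) with the slide row as a block, which leaves aged mouse 1 as the 1 aged mouse compared, and 4 with 1 mouse left out. Leaving out 1 mouse gave -0.26 to 0.045 for Mdh1 and -0.83 to 0.16 for Slc25a13. The median of the shuttle genes ranged from -0.35 to -0.081 with 1 mouse left out and was -0.34 with median scaling, which moved the median of all genes from -0.06 to -0.21, so that this shift was common to all genes. The number of all genes past the threshold, 53 (41 higher, 12 lower), was 8 without a filter on dim probes, 35 with probes above background on all 6 arrays, and 1 to 199 with 1 mouse left out (9, 8 and 8 without young mouse 1, 2 and 3, and 199, 9 and 1 without aged mouse 1, 2 and 3). Median scaling gave 26 higher and 16 lower. Nothing in the labels says that the replicate numbers pair the mice. Deviations of mice with the same number correlated at -0.063, -0.271 and 0.028, which cannot settle whether the numbers pair them. The replicate block gave 5 genes and an Slc25a12 limma adjusted p of 0.469. The shuttle median stayed at -0.19, as it must with a balanced block. Slc25a11 groups did not overlap under any of the 4 other background corrections or scalings, whereas Gpd1 groups separated with normexp and Got1 groups with median scaling (aged lower in both). The causes were not tested. All 8 shuttle probes were well above background on all arrays, but the Slc25a13 spot was only 3.14 to 7.94 times its local background, and its difference was -0.11 with normexp. The series matrix could give no separate value, and 1 slide and 1 scan left no such block to fit.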
